A study of Mus musculus with 6 samples.

Results

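Syndecans and glypicans are the main heparan sulfate proteoglycans of the cell surface, and their RNA was examined in 6 RNAseq libraries of immortalized mouse pancreatic fibroblasts. The genes were taken by symbol from the table of raw counts: the syndecans Sdc1, Sdc2, Sdc3 and Sdc4 and the glypicans Gpc1, Gpc2, Gpc3, Gpc4 and Gpc6, 9 of the 14831 genes in the table. Gpc5 was not analysed here. All 9 genes had enough counts to be tested, although Gpc3 passed the filter only through the group in which it was detected. The libraries were 3 labelled WT and 3 labelled KO, the latter with the genotype Gli2-/-;Gli3-/-, all of mixed strain and each from its own confluent well in DMEM with calf serum. No added treatment is given in the labels. The study derived its lines from mice with floxed Gli alleles, and its WT lines received virus without Cre. In the study's methods, fibroblast lines of this kind were outgrown from adult pancreata, immortalized, and infected with adenovirus carrying CMV-driven eGFP, together with a dsRed lentivirus for controls or a second adenovirus with CMV-driven Cre for knockouts, then sorted. The wells may differ only through culture and library making, so that p-values measure the spread between these samples, which may be technical, and how many separately derived lines stand behind each group is not given in the sources used here.

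Both families carry long heparan sulfate chains on a protein core. Syndecans cross the membrane and end in a short cytoplasmic tail that binds adaptor proteins, whereas glypicans are held at the outer leaflet by a glycosylphosphatidylinositol (GPI) anchor. The chains bind FGF, WNT, BMP and Hedgehog ligands, chemokines and matrix proteins, and their sulfation pattern sets which ligands bind. In the Hedgehog pathway, glypican 3 is known to bind the ligand and restrain signaling, while other glypicans can promote it.

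The labels were first checked against the genes they name. Gli2 had 27.1 ± 1.19 CPM (gene counts relative to the scaled library total; mean ± SD, n = 3) across the WT-labelled libraries and 56.2 ± 1.96 across the KO-labelled ones, and Gli3 had 12.5 ± 0.0440 and 40.8 ± 1.64. Both were therefore higher across the KO-labelled libraries, although the genotype names both as knocked out. Groups are referred to by label only, and every direction given rests on those labels. The counts cover whole genes and do not show which exons were read, so reads from the floxed part cannot be told from the rest. The study's methods describe screening of the sorted lines by qPCR and western blot, and the study reports Gli deletion in its lines by both. It also reports that its Gli2 and Gli3 knockout fibroblasts did not respond to Hedgehog stimulation. None of these measures was analysed here. The Hedgehog targets moved the other way: Ptch1 fell from 235 ± 10.3 to 81.8 ± 4.61 CPM and Gli1 from 1.31 ± 0.169 to 0.249 ± 0.141. Among other markers, the 9 fibroblast genes in the table summed to between 44800 and 47200 CPM across the WT-labelled libraries and between 36800 and 38500 across the KO-labelled ones, with Thy1 near 0 in both. Single genes differed: Dcn, Col3a1, Pdgfra and Pdgfrb were 2.92-, 1.92-, 1.86- and 1.58-fold lower across the KO-labelled libraries. Col1a2 and Vim were 1.14- and 1.10-fold lower, Col1a1 was at 1.01-fold and S100a4 was 3.18-fold higher. Of 10 epithelial genes listed, 4 are in the table, without Epcam, Krt18, Krt19, Cpa1, Prss2 and Ptf1a. These 4 summed to 16.3 to 17.8 and 21 to 22.1 CPM, with Krt8 at 3 counts or fewer in each WT-labelled library. Cela1 and Cdh1 were 1.83- and 2.12-fold higher and Sox9 1.41-fold lower across the KO-labelled libraries. Of 7 immune genes listed, the 4 in the table summed to 55.6 to 60.8 and 52.4 to 54.1 CPM, and Ptprc, Adgre1 and Cd3e are absent. The 4 endothelial genes listed (Pecam1, Cdh5, Kdr and Tek) are not in the table. The 4 mesothelial genes in the table (Msln, Upk3b, Lrrn4 and Wt1) summed to 21.5 to 24.4 CPM across the WT-labelled libraries and to 267 in each KO-labelled library. The part of these marker differences in the results below was not tested, and in bulk RNA fewer cells of a type and less RNA per cell cannot be told apart.

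A gene was called when its adjusted p was under 0.05 and its change at least 1.5-fold, and 3 of the 9 genes were called: Gpc3 and Gpc1 were higher and Gpc6 was lower across the KO-labelled libraries. Among all 14289 genes tested, 17.7% were called, 11.6% higher and 6.10% lower. Gpc3 entered the test only through its KO-labelled counts. With at least 10 counts required in every library, Gpc3 was not tested and 2 members were called. Without the fold limit, the adjusted p was under 0.05 for 8 of the 9, of which 6 were higher and 2 lower, beside 58.7% of all genes, 29.9% higher and 28.8% lower. The libraries of the groups did not overlap for 8 of the 9 genes, against 64.2% of all genes tested. All 3 called genes were glypicans, and no syndecan reached the fold limit. The median log2 fold change was 0.28 for the 9 genes, also with Gpc3 set at its lower bound, and 0.0020 for all genes tested.

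**Figure D1:**
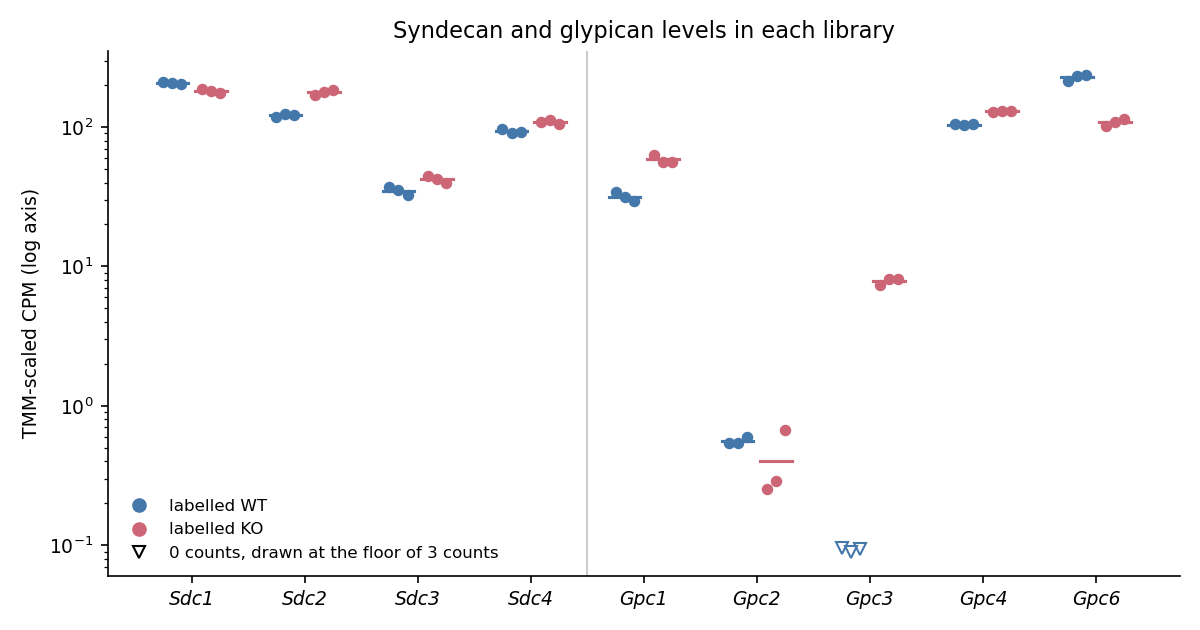
TMM-scaled CPM (log axis) of each syndecan and glypican, with 1 point for each WT-labelled (blue) or KO-labelled (red) library and a line at the group mean. Gpc3 had 0 counts in the 3 WT-labelled libraries, drawn as open triangles at the floor of 3 counts, and between 7.31 and 8.18 CPM across the KO-labelled ones; Gpc2 is the only gene whose groups overlap.

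Gpc3 was undetected in a whole group. It had 0 counts in each of the 3 WT-labelled libraries and 259, 338 and 270 counts across the KO-labelled ones, or 7.31, 8.11 and 8.18 CPM (7.87 ± 0.481, SD, n = 3). A count of 0 allows up to 3 counts, which is between 0.0896 and 0.0957 CPM across the WT-labelled libraries and covers counting error only. Against the highest of these floors, the mean of Gpc3 across the KO-labelled libraries was at least 82.2-fold higher (adjusted p = 7.86e-10). Because Gpc3 passed the count filter only through those libraries, the adjusted p is not used as support for the step. The step from at most 3 counts in every WT-labelled library to at least 100 in every KO-labelled library was seen for 12 genes of the table, of which 1, Gpc3, is a syndecan or glypican. Per kilobase of annotated exon it remained a minor glypican across the KO-labelled libraries, at 2.92 ± 0.179 CPM per kb, below every other glypican except Gpc2.

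The genes whose 6 log2 CPM values, centred on their own mean, lay nearest to those of Gpc3 were Tenm3, Tmem108 and Zfp422, with root mean square differences of 0.219, 0.219 and 0.224. Tmem108 and Zfp422 also had 0 counts in every WT-labelled library, while Tenm3 had 11, 12 and 18. In the KO-labelled libraries, Tenm3 had 2434, 2925 and 2594 counts. A prior count of 2 was added for these profiles, and it sets the values of genes at 0 counts, so that the distances to Gpc3 depend on it and do not compare fold changes.

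Because Gpc3 went from undetected to detected, the 250 bases before its RefSeq start are printed here beside those of Sdc3, which was detected in all 6 libraries. Both come from RefSeq on GRCm38.p6, lie before every annotated exon of their gene in GENCODE M21, are written 5′ to 3′ on the strand of the gene, and have each CpG in capitals. The Gpc3 window is chrX:52613975-52614224 on the minus strand and the Sdc3 window is chr4:130792287-130792536 on the plus strand.
Gpc3: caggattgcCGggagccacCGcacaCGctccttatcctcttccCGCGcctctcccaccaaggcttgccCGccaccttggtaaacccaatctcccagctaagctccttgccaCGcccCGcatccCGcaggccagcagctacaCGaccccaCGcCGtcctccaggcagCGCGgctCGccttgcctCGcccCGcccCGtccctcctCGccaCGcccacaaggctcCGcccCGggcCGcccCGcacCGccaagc
Sdc3: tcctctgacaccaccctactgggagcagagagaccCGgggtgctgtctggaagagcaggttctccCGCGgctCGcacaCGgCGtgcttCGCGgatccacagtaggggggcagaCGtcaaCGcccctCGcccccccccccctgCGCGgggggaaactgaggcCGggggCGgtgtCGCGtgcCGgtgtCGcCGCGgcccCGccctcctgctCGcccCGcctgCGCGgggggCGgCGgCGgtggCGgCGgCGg

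Both windows were rich in CpG. The Gpc3 window holds 25 CpGs, more than 89.3% of the 32851 promoter windows of the same length, and the Sdc3 window holds 32, more than 95.4%, where the median window holds 6. The other members with an entry, Sdc1, Sdc4, Gpc2 and Gpc4, hold between 10 and 19. Unlike the printed windows, those of Sdc4 and Gpc4 lie within the gene as annotated in GENCODE M21. Those of Sdc1 and Gpc2 reach into it. By symbol, 6 of the 9 genes matched the promoter table, and Sdc2, Gpc1 and Gpc6 did not. The letters GACCACCCA, a GLI binding sequence, were searched on both strands of these 250 bases. They occur in 0.225% of all windows and in 0 of the 6 members' windows. The GC box GGGCGG was found in each of the 6, with 1 match in Gpc4 and 3 or 4 in the others, and in 32.7% of all windows. All windows, whose median is 6 CpGs, were not matched to these 6 in base content. No excess in the members can therefore be read from that share. A match or its absence in this window is a description and not a test of binding.

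Gpc4 lies next to Gpc3 on the X chromosome, on the same strand, and moved far less. Gpc4 (chromosome X from 52053021 to 52165252 in GENCODE M21, GRCm38, the annotation used for all gene positions) ends 107 kb before Gpc3 (52272426 to 52613950). It had 105, 103 and 105 CPM across the WT-labelled libraries and 128, 131 and 130 across the KO-labelled ones. The groups did not overlap, and the replicates lay within a few CPM of each other. Its log2 fold change was 0.32 ± 0.03 (SE; adjusted p = 1.14e-06), or 1.24-fold, under the fold limit. Hs6st2, which encodes a heparan sulfate 6-O-sulfotransferase and lies 371 kb beyond Gpc4, rose by a similar amount, with a log2 fold change of 0.25 ± 0.03 (SE; adjusted p = 5.24e-06).

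On the other side of Gpc3, the genes within 500 kb did not share its step. Of the 10 genes tested within 500 kb of Gpc3, Gpc4 included, 0 were called higher and 2 were called lower, namely C430049B03Rik, a long noncoding RNA that hosts a microRNA cluster, and Mir351 in the same place. The log2 fold changes of the 10 genes ran from -0.96 to 0.50. Phf6 and Hprt, the nearest coding genes measured on that side, had values of 0.10 (adjusted p = 0.0536) and 0.21 (adjusted p = 0.00147). Xist, the noncoding RNA of the inactive X chromosome, was high in both groups, at 1230 ± 211 CPM across the WT-labelled libraries and 704 ± 145 across the KO-labelled ones, a log2 fold change of -0.80 (adjusted p = 1.76e-04). Its part in the X-linked values was not tested.

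**Figure D2:**
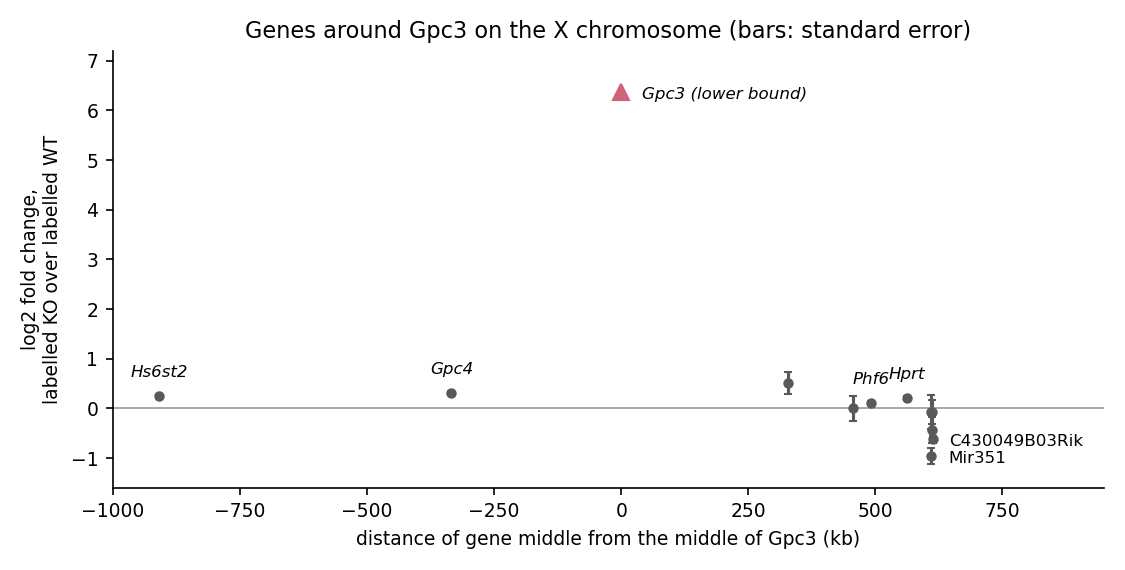
Log2 fold change, labelled KO over labelled WT, of the tested genes around Gpc3 against the distance of each gene's middle from that of Gpc3 in kb; bars are standard errors and the triangle is the lower bound for Gpc3. Gpc4 at 0.32 and Hs6st2 at 0.25 sit near 0 beside Gpc3, whose mean across the KO-labelled libraries was at least 82.2-fold higher.

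Gpc6 fell most. The gene (chromosome 14 from 116925315 to 117976544) had 214, 232 and 238 CPM across the WT-labelled libraries and 101, 109 and 115 across the KO-labelled ones. Every WT-labelled library lay above every KO-labelled library by a wide margin. The log2 fold change was -1.08 ± 0.05 (SE; adjusted p = 1.45e-09), which makes Gpc6 2.11-fold lower. By counts it was the most abundant glypican across the WT-labelled libraries. Lmo7, Slc12a7 and Prelp had the profiles nearest to Gpc6, with root mean square differences of 0.0205, 0.0289 and 0.0454 in log2 CPM and log2 fold changes of -1.08, -1.10 and -1.08. Prelp encodes a small leucine-rich matrix proteoglycan. Of the 2 genes tested within 500 kb of Gpc6, Tgds and Gpr180, neither had an adjusted p under 0.05.

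Gpc1 rose. The gene (chromosome 1 from 92831645 to 92860779) had 34.2, 31.3 and 29.3 CPM across the WT-labelled libraries and 63.2, 56.6 and 56.5 across the KO-labelled ones, so that the groups did not overlap. Its log2 fold change was 0.90 ± 0.06 (SE; adjusted p = 5.44e-08), or 1.86-fold. Gpc1 shares 977 of its 5159 exon bases with Ankmy1 on the opposite strand, and whether the counting used strand is not given in the sources used here. Ankmy1 averaged 0.0710 and 0.320 CPM, so that its own listed reads are few beside those of Gpc1.

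Gpc2 was barely detected. The gene, known for its place in the developing nervous system (chromosome 5 from 138273655 to 138280005), had 17, 18 and 19 counts across the WT-labelled libraries and 9, 12 and 22 across the KO-labelled ones. The third library labelled KO lay above all WT-labelled libraries and the other two lay below them. The log2 fold change was -0.51 with a standard error of 0.35 (adjusted p = 0.232), and the difference was not detectable at this depth. The value depended on which KO-labelled library was left out. Without KO replicate 3 it was -1.02 (adjusted p = 0.0169), past the fold limit. Without KO replicate 1 or KO replicate 2 it was -0.29 (adjusted p = 0.534) or -0.30 (adjusted p = 0.543). In addition, 55.6% of the exon bases of Gpc2 are shared with the gene model Gm43720 on the same strand, to which the counting could have lost reads.

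Among the syndecans, Sdc2, Sdc4 and Sdc3 were higher and Sdc1 was lower across the KO-labelled libraries, all by less than 1.5-fold. Sdc2 (chromosome 15 from 32920723 to 33034935), the syndecan typical of fibroblasts and other mesenchymal cells, changed most. It had 118, 125 and 123 CPM across the WT-labelled libraries and 171, 179 and 184 across the KO-labelled ones. The groups stood apart by more than their own range. Its log2 fold change was 0.55 ± 0.04 (SE; adjusted p = 4.28e-08), or 1.46-fold, just under the fold limit, and upper-quartile scaling put it past the limit at 0.61.

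Sdc1 (chromosome 12 from 8771323 to 8793715), known best from epithelia and plasma cells, went the other way by a small amount. It had 210, 207 and 204 CPM across the WT-labelled libraries and 189, 182 and 175 across the KO-labelled ones. The groups did not overlap, with a gap between them about as wide as the range of the KO-labelled libraries. The log2 fold change was -0.19 ± 0.03 (SE; adjusted p = 4.41e-04), a fall of 12.1%.

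Sdc4 (chromosome 2 from 164424247 to 164443887), a focal adhesion component that acts with integrins, had 97.1, 90.8 and 91.7 CPM across the WT-labelled libraries and 109, 113 and 105 across the KO-labelled ones. Its log2 fold change was 0.23 ± 0.04 (SE; adjusted p = 2.00e-04). Sdc3 (chromosome 4 from 130792537 to 130826319), the syndecan with the longest ectodomain, had 37.0, 35.2 and 32.7 CPM and 44.7, 42.5 and 39.9 CPM. Its log2 fold change was 0.28 ± 0.05 (SE; adjusted p = 7.12e-04). Neither gene's groups overlapped, and Sdc4 rose by 17.2% and Sdc3 by 21.2%. Antisense gene models cover 415 and 48 of the 5989 exon bases of Sdc3.

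**Figure D3:**
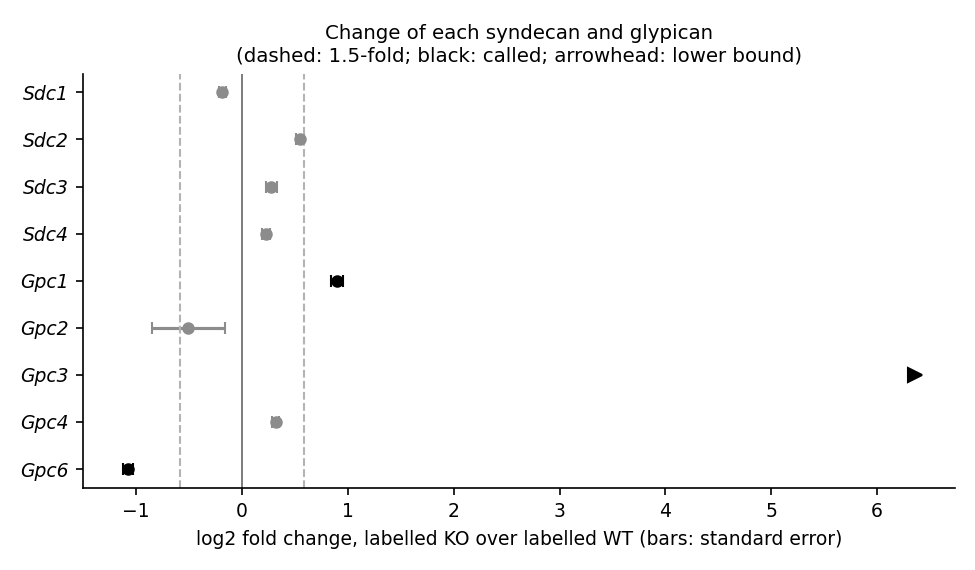
Log2 fold change, labelled KO over labelled WT, of the 9 genes with its standard error from edgeR; dashed lines mark 1.5-fold, black marks a called gene, and the arrowhead is the lower bound for Gpc3. The syndecans lie between -0.19 and 0.55, whereas Gpc6 at -1.08 and Gpc1 at 0.90 lie outside the dashed lines.

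Levels were compared between genes per kilobase of annotated exon. In the WT-labelled libraries, Sdc1 was highest at 54.4 ± 0.804 CPM per kb, followed by Gpc4 at 39.3 ± 0.312. Sdc4 (36.6 ± 1.34), Gpc6 (35.5 ± 1.96) and Sdc2 (34.5 ± 1.02) came next, and each overlapped its neighbor in this order. Gpc1 (6.12 ± 0.476) and Sdc3 (5.84 ± 0.362) formed a lower pair that also overlapped, and Gpc2 was at 0.131 ± 0.00749. In the KO-labelled libraries the order at the top was Sdc2 (50.5 ± 1.79), Gpc4 (48.9 ± 0.441) and Sdc1 (47.8 ± 1.94), where neighbors overlapped. Sdc4 stood below them at 42.9 ± 1.57, Gpc6 at 16.8 ± 1.06, Gpc1 at 11.4 ± 0.744 and Sdc3 at 7.07 ± 0.405. Lengths are sums over all annotated exons of a gene and can exceed the transcripts these cells make.

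On the same scale per kilobase, Gpc6 made up 41.9%, 44.5% and 44.9% of glypican RNA across the WT-labelled libraries and 19.8%, 21.1% and 22.0% across the KO-labelled ones. Gpc4 went from 48.5% ± 0.968 to 61.0% ± 0.496 and Gpc1 from 7.56% ± 0.727 to 14.2% ± 1.08 (SD, n = 3 each). Gpc3 made up 3.43%, 3.75% and 3.76% across the KO-labelled libraries. Among the syndecans, the share of Sdc1 went from 41.4% ± 0.129 to 32.3% ± 1.05 and that of Sdc2 from 26.3% ± 1.02 to 34.1% ± 1.54. The shares of Sdc4 and Sdc3 overlapped between the groups. Shares of a family sum to a constant, so that a fall of Gpc6 alone raises the others.

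**Figure D4:**
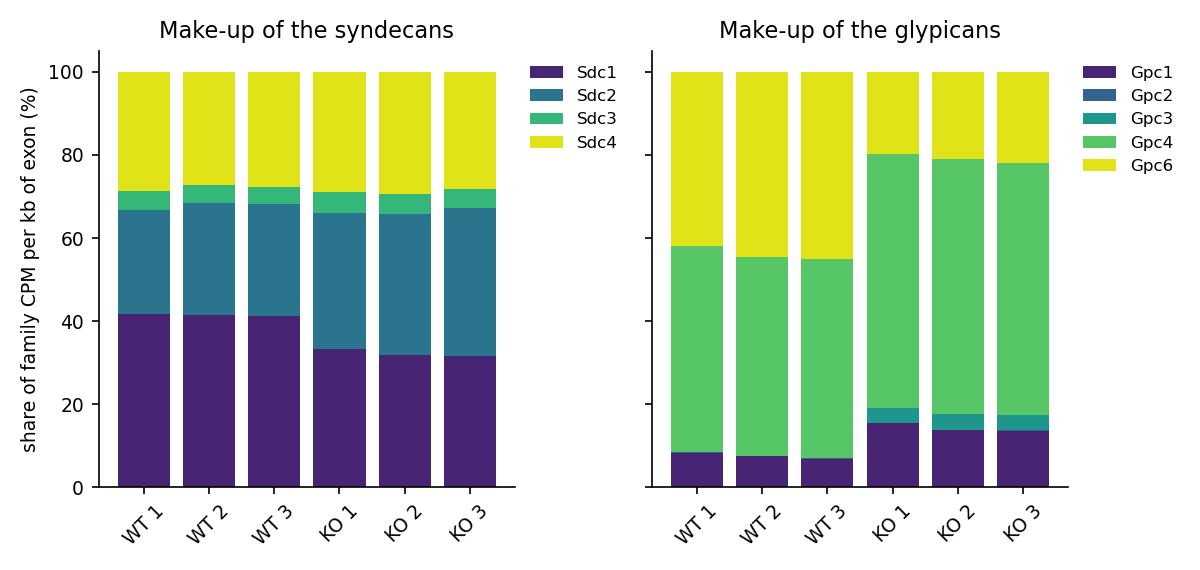
Share of each member in the CPM per kb of exon of its family (%), stacked for each WT-labelled library or KO. Gpc6 takes 43.8% of glypican RNA on average across the WT-labelled libraries and 21% across the KO-labelled ones, and the 3 libraries of a group resemble each other.

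Summed over the family, the differences were small. The syndecans together had 462, 458 and 451 CPM across the WT-labelled libraries and 515, 517 and 503 across the KO-labelled ones, a ratio of 1.12. The glypicans together had 353, 367 and 372 CPM and 300, 304 and 310 CPM, a ratio of 0.837. Summed per kilobase, the ratio of the glypicans was 0.989, because the gene that fell, Gpc6, has the longest exons. For both sums in CPM the groups did not overlap, and an exact permutation test (two-sided, n = 3 each) gave p = 0.1, the smallest that 3 against 3 libraries allow.

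The enzymes and partners of the 9 genes were described with 7 lists of 88 genes in all, of which 69 were tested. Of these, 17 (24.6%) were called, 9 higher and 8 lower across the KO-labelled libraries, beside 17.7% of all genes, and 49 (71.0%) had an adjusted p under 0.05, beside 58.7% of all genes, the share against which the counts at this limit in each list are to be read. Their median log2 fold change was -0.03. The lists hold genes of other pathways as well, such as proteases with many substrates.

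Of 10 genes tested that build the linker and polymerize heparan sulfate, 0 were called, 5 had an adjusted p under 0.05 and the median log2 fold change was -0.01. Ext1 and Ext2, the subunits of the polymerase, had log2 fold changes of 0.11 (adjusted p = 0.0197) and 0.01 (adjusted p = 0.705). Xylt2, which starts the linker, fell by 0.32 on the log2 scale (adjusted p = 1.67e-05). GPI anchor attachment, which glypicans need, likewise had 0 of 9 genes called, with 7 at an adjusted p under 0.05 and a median of 0.11.

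Genes of chain sulfation were called in both directions, while the chains themselves were not measured. All 8 genes tested had an adjusted p under 0.05 and 4 were called, 2 higher and 2 lower, with a median of 0.02. Ndst1, the N-deacetylase and N-sulfotransferase with which sulfation begins, fell from 361 ± 8.90 to 207 ± 5.45 CPM (log2 fold change -0.81, SE 0.03, adjusted p = 3.72e-10). Hs6st1, a 6-O-sulfotransferase, fell from 160 ± 2.68 to 99.5 ± 2.01 CPM (log2 fold change -0.69). The called genes that rose were far lower in level: Ndst3 went from 2.48 ± 0.285 to 4.81 ± 0.403 CPM and Hs3st1, a 3-O-sulfotransferase, from 1.29 ± 0.158 to 2.71 ± 0.111. The other 4 genes stayed under the fold limit. On the log2 scale, Hs6st2 and Glce rose by 0.25 and 0.40, and Ndst2 and Hs2st1 fell by 0.28 and 0.22. Hs6st2 was abundant as well, at 178 ± 0.677 and 212 ± 1.75 CPM.

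Among the genes that edit or degrade the chain, 2 of 10 tested were called and the median was -0.18. Sulf1, an extracellular sulfatase that removes 6-O-sulfate, fell from 137 ± 3.28 to 75.3 ± 2.69 CPM (log2 fold change -0.87, SE 0.04, adjusted p = 5.53e-10). Its relative Sulf2 fell by 0.17 on the log2 scale (adjusted p = 4.49e-04), under the fold limit. Arsg, a lysosomal sulfatase, rose from 0.752 ± 0.114 to 2.22 ± 0.117 CPM.

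Of 13 genes tested whose products shed or release core proteins, 5 (38.5%) were called, 2 higher and 3 lower, beside 17.7% of all genes. An adjusted p under 0.05 was found for 8 (61.5%), beside 58.7% of all genes, and the median was -0.04. Pcsk6, a proprotein convertase, rose from 109 ± 6.21 to 330 ± 16.0 CPM (log2 fold change 1.59, SE 0.05, adjusted p = 1.92e-11), and the metalloprotease gene Adamts1 rose by 0.62. Furin, the convertase known to cleave glypican 3, fell by 0.19 on the log2 scale (adjusted p = 1.66e-04). Mmp3 and Gdpd5, which encodes an enzyme that cuts GPI anchors, fell by 0.98 and 0.71, and Mmp9, at under 1 CPM in both groups, fell by 1.31. The sheddase genes Adam10 and Adam17 had values of -0.04 (adjusted p = 0.240) and 0.04 (adjusted p = 0.339). Under the fold limit, Adam9 rose by 0.57 (adjusted p = 6.69e-09) and Mmp14 fell by 0.40 (adjusted p = 1.24e-07).

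Of the 11 genes tested in the list of cytoplasmic partners of syndecans, 2 (18.2%) were called, beside 17.7% of all genes. An adjusted p under 0.05 was found for 6 (54.5%), beside 58.7% of all genes. The 2 called genes had the largest log2 fold changes of all genes tested in the 7 lists. Tiam1, an activator of the GTPase Rac that binds the syndecan 1 tail, rose from 2.23 ± 0.171 to 61.7 ± 4.95 CPM (log2 fold change 4.78, SE 0.09, adjusted p = 2.90e-13). Ezr, which encodes ezrin, a linker of membrane proteins to actin, rose from 24.2 ± 0.331 to 166 ± 5.37 CPM (log2 fold change 2.77, SE 0.04, adjusted p = 2.64e-14). The mesothelial markers rose in the same libraries, with Msln going from 2.37 ± 0.394 to 166 ± 2.33 CPM. The list, and the totals over all lists, also count Sdccag8 (log2 fold change -0.23, adjusted p = 0.00145), which encodes a centrosomal protein not known as a syndecan partner. The other 8 genes lay between -0.10 and 0.11, among them Sdcbp, the gene of the syndecan-binding adaptor syntenin, at -0.09 (adjusted p = 0.0283).

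Of 8 other heparan sulfate proteoglycans or part-time carriers of the chain that were tested, 2 were called higher and 2 lower. Agrn, the gene of the basement membrane proteoglycan agrin, fell from 113 ± 7.26 to 65.2 ± 1.13 CPM (log2 fold change -0.79) and Nrp2, a semaphorin and VEGF receptor gene, from 134 ± 6.05 to 82.5 ± 5.11 (log2 fold change -0.70). Col18a1, which encodes collagen XVIII, rose from 16.4 ± 0.659 to 31.1 ± 1.00 CPM (log2 fold change 0.92) and Spock2, which encodes testican 2, from 0.942 ± 0.137 to 2.90 ± 0.533 (log2 fold change 1.61). Hspg2, the gene of perlecan, overlapped between the groups at 1380 ± 141 and 1130 ± 196 CPM.

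**Figure D5:**
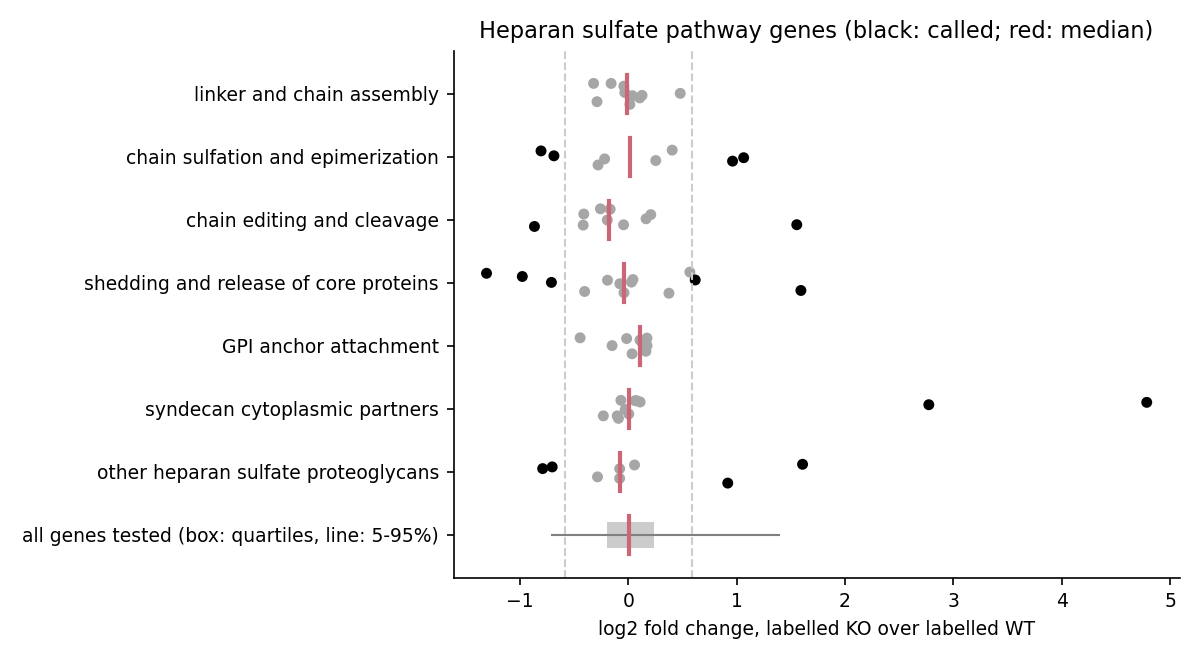
Log2 fold change, labelled KO over labelled WT, of each tested gene in the 7 lists; black points were called, red lines are medians, dashed lines mark 1.5-fold, and the bottom row shows all genes tested. Tiam1 at 4.78 and Ezr at 2.77 lie far to the right, while the lists for chain assembly and GPI anchoring have 0 black points.

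The members lie in separate places in the genome apart from Gpc3 and Gpc4, and their neighbors within 500 kb were counted. Among all genes, 17.7% were called, 11.6% higher and 6.10% lower. All 3 genes tested near Sdc2 were called higher: Cpq at 0.97, Gm32618 at 2.00 and Sema5a at 0.61 on the log2 scale, beside 0.55 for Sdc2. Gm32618 was low, at 0.268 CPM across the WT-labelled libraries and 1.08 across the KO-labelled ones. Near Gpc1, 3 of 13 were called, all higher (Dusp28, Sned1 and 2310007B03Rik). Of these, Dusp28 was low, at 0.423 and 1.44 CPM across the WT-labelled and KO-labelled libraries. 2310007B03Rik, at 0.00995 and 0.491 CPM, passed the count filter only through the KO-labelled libraries. Near Sdc1, Matn3 (low, at 0.247 and 0.75 CPM) was called higher and Hs1bp3 and Wdr35 lower among 8 genes tested. Near Sdc4, Slpi, Matn4 and Ube2c were called higher and Pltp and Mmp9 lower among 23. Near Gpc2 only Fam20c was called, lower, among 21, and near Sdc3 0 of 4 were called. Genes that lie together are not independent of each other, and these counts are descriptions.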

How the data were processed

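RNA of 6 libraries was sequenced after poly-A selection. Per the labels, the authors used STAR 2.7.2b, featureCounts and limma on GRCm38.p6; strand use is not given in the sources used here. The authors deposited raw counts per gene and log2 CPM values from limma's voom; no gene in the tables had fewer than 20 counts in all. Totals were 31728420 to 33905521 counts in the libraries labelled WT and 32781730 to 41035931 in those labelled KO. Of 14831 identifiers, 14822 matched GENCODE M21 without the version.

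Groups were compared on the counts by edgeR 4.0.16, run in R 4.3.3 (TMM factors, filterByExpr, quasi-likelihood F test, no covariates), with Benjamini-Hochberg adjustment over 14289 genes; every adjusted p comes from this test unless another is named. CPM values use TMM-scaled totals. The standard error is the log2 fold change over the root of its F statistic. Every pair of libraries in a group differed by more than sampling noise (chi-square per degree of freedom 2.47 to 7.53), so none was treated as a duplicate deposit; the labels give no pairing. Sums were compared with an exact permutation test (scipy 1.17.1).

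The members, lists and limits were chosen with earlier results of these data known. Named are the members, Gli2 and Gli3, up to 3 called genes in each direction from each pathway list, the 3 nearest profiles to the members that rose and fell most, and called genes within 500 kb. Ext1, Ext2, Xylt2, Sulf2, Furin, Adam9, Adam10, Adam17, Mmp14, Sdcbp, Sdccag8, Hspg2, Hs6st2, Glce, Ndst2 and Hs2st1 were named after their values were seen. So were Phf6, Hprt, Tgds, Gpr180, Xist, the Hedgehog targets and the marker genes. Alternatives were scaling by RLE, by the upper quartile or by total counts, the count filter omitted or raised, DESeq2 1.42.0, limma-voom (limma 3.58.1), limma on the deposited log2 values, other fold limits and leaving out each library.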

Additional observations from a re-analysis of the deposited data

How the results depend on the processing

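The number of members called was 3, and it moved to 8 without the fold limit. It was 2 with a limit of 2-fold, which Gpc1 does not reach, and 2 with at least 10 counts in every library, where Gpc2 and Gpc3 were no longer tested. It was 4 with upper-quartile scaling, which added Sdc2, and 4 without KO replicate 3, which added Gpc2. Pathway genes called numbered 17 and moved to 49 without the fold limit and to 7 with a limit of 2-fold. Under the 14 other fits, Gpc1 stayed between 0.84 and 0.95 and Gpc6 between -1.12 and -1.02 on the log2 scale, and no member changed direction. The syndecan sum, with a ratio of 1.12, was 1.15 with CPM of total counts, and the glypican sum, with a ratio of 0.837, was 0.989 per kb of exon. For the syndecan sum and for Gpc2, the cause was not tested. No paired analysis was possible because the labels give no replicate number that the groups share. Low depth limits Gpc2, at 22 counts or fewer in each library, and the fitted size of Gpc3, which ran from 8.99 to 11.1 on the log2 scale and is no bound.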

Other observations

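Among heparan sulfate genes too low to pass the count filter, 3 were at 3 counts or fewer in every WT-labelled library and above that in every KO-labelled library. No gene of the table had fewer than 20 counts in all, so genes this low in one group were listed only through the other. The share of all genes with this pattern was not counted, and the 3 genes are a description. The heparanase gene Hpse had 0 counts in each WT-labelled library. Its KO-labelled counts were 12, 10 and 6, and the mean CPM of those libraries was at least 2.65-fold higher. Xylt1, which like Xylt2 starts the linker, had 1 count in each WT-labelled library against 10, 14 and 12 in the KO-labelled ones. Hs3st3b1, a 3-O-sulfotransferase gene, had 0, 2 and 0 counts and 15, 10 and 12 counts. The bound for Hpse is against a floor of 3 counts per library and covers counting error only. These genes were chosen after their values were seen.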
